A study of Mus musculus with 6 samples.

Results

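Mitosis is driven by a small set of genes that a dividing cell switches on late in its cycle: the B-type cyclins and Cdk1 that trigger division, the kinases Plk1, Aurora A and Aurora B, the kinetochore that ties chromosomes to the spindle, the checkpoint that holds the cell until every chromosome is attached, and the motors that build the spindle and split the cell. Because resting cells express little of them, these genes are used as a readout of division in a tissue or culture. Many of their promoters carry CCAAT boxes, bound by the factor NF-Y, and the cell cycle homology region, a TTTGAA element through which the DREAM and B-MYB complexes act. In the injured liver, hepatic stellate cells divide as they turn into collagen-producing myofibroblasts, and liver macrophages and endothelial cells can divide as well.

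The mitosis genes described here are 40 genes chosen by name from a table of 55401 mouse genes, and all 40 were found in it. The table holds messenger RNA of 6 libraries of cells labelled hepatic stellate cells: 3 from S100a16+/- mice, which carry 1 disrupted copy of the calcium-binding protein gene S100a16, and 3 from WT mice, all of the C57BL/6J strain. Both groups were kept for 7 days in medium with serum, under which stellate cells activate, and no other treatment separates them. The age of the mice, and whether a library came from 1 animal or from pooled animals, are not given in the labels. The p-values therefore measure the spread between these libraries, which may be technical. Library totals ran from 61979103 to 76291481 counts.

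The libraries were first checked against their labels. S100a16 stood at 18.05, 17.7 and 30.0 FPKM (fragments mapped to a gene, scaled to its length and to the size of the library) in S100a16+/- replicates 1, 2 and 3, and at 57.7, 58.8 and 56.8 FPKM in WT replicates 1, 2 and 3. It was lower in all 3 S100a16+/- libraries, by a log2 change of -1.35 (edgeR adjusted p = 0.0313). S100a16+/- replicate 3 stood apart from replicates 1 and 2: its correlation with them across genes, on log2 FPKM values, was 0.930 and 0.929, against 0.987 between replicates 1 and 2. The results below are therefore also given without it. Transcripts of several liver cell types were present. Summed over 14 stellate and myofibroblast markers, the S100a16+/- replicates held 1104, 1078 and 147 FPKM and the WT libraries 938 to 1057 FPKM, and 4 of the 14 (Lrat, Reln, Lhx2 and Rgs5) were below 1 FPKM in every library. Summed over 16 macrophage markers, the levels were 17045, 18275 and 13286 FPKM in S100a16+/- and 10429 to 10973 FPKM in WT. Fewer dividing cells and less mitotic RNA in each dividing cell cannot be told apart in such bulk samples, nor can the cell types in which the transcripts lay.

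Promoter sequences of 6 of the genes are printed to show where in the promoter these motifs lay and that the genes differed in holding them. RefSeq windows (GRCm38.p6) of 250 bases before the start of transcription were found for 32 of the 40 genes, giving 33 windows because Prc1 has 2. The letters TTTGAA or, on the other strand, TTCAAA occurred in 10 of the 33 windows (30.3%), against 15.99% of the 32851 windows of all genes. CCAAT or its reverse complement ATTGG occurred in 23 of the 33 (69.7%), against 33.8% of all windows, and both motifs in 8 of the 33 (24.2%), against 5.55%. A window counts once however many matches it holds, and matches may overlap. The windows of the mitosis genes were richer in G and C (median 59.6%, against 52.4% over all windows). The first 4 sequences are the genes that were lower in S100a16+/- and held both motifs, Aurka is a gene whose difference did not pass the test and that held CCAAT alone, and Nusap1 is a gene that was lower and held neither. They are written 5′ to 3′ on the strand of the gene, with matches in capitals.
Ccnb2, chr9:70421555-70421804, minus strand: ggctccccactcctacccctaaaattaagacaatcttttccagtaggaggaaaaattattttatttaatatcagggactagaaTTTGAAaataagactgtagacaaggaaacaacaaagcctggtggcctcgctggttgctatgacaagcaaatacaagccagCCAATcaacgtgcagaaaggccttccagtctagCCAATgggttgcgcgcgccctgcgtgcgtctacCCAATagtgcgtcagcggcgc
Top2a, chr11:99024190-99024439, minus strand: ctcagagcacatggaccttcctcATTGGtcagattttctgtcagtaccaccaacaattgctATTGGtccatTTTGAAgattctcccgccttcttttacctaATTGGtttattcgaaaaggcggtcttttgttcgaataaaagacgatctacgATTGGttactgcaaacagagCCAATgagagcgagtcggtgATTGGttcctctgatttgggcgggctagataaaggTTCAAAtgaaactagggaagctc
Mki67, chr7:135716380-135716629, minus strand: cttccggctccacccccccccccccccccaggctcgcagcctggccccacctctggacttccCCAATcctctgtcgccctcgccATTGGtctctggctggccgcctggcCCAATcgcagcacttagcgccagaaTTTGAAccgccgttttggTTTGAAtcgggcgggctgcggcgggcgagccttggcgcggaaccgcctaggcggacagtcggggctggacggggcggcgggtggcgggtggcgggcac
Kif11, chr19:37376132-37376381, plus strand: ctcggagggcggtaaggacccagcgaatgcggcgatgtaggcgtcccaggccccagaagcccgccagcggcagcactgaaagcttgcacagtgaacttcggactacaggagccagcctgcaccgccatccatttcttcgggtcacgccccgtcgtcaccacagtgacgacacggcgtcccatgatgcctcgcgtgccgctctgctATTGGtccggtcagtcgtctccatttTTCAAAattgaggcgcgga
Aurka, chr2:172370571-172370820, minus strand: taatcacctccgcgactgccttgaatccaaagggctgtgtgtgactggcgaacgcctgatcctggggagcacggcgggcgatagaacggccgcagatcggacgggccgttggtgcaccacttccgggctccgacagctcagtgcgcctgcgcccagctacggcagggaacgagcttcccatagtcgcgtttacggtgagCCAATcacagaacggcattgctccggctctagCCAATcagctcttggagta
Nusap1, chr2:119618048-119618297, plus strand: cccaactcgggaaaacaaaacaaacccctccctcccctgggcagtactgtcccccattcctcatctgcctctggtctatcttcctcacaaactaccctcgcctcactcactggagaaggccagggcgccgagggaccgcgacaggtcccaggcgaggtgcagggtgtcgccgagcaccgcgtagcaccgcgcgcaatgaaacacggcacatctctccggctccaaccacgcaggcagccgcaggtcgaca
In Ccnb2 the CCAAT boxes began 87, 54 and 21 bases before the RefSeq start, and in Kif11 the ATTGG and TTCAAA letters began 45 and 19 bases before it. For Ccnb2, Mki67, Kif11 and Aurka, among others, the bases just after that start were not found in a transcript of the gene in the GENCODE M21 annotation. The start, and so these distances, are uncertain there. The Kif11 window ends at 37376381, and the deposited gene starts at 37376403. Among genes that passed the test below, 5 of 12 windows held TTTGAA and 9 of 12 held CCAAT. Among those that did not, the counts were 5 of 20 and 14 of 20. A match is a run of letters and does not show that a factor binds there.

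Between the genotypes, the estimated level was lower in S100a16+/- for all but 1 of the mitosis genes that could be tested. Of the 40, 38 passed the expression minimum (at least 1 FPKM in at least 3 libraries) and were tested among 12766 genes. Cdc25c and Knl1 were below it. Cenpf reached it through the WT libraries alone, and it is among the 13 called lower and the 34 with groups apart in CPM below. By edgeR, 13 of the 38 were lower at an adjusted p under 0.05, against 1.61% of all tested genes called lower, and 0 were higher, against 2.85% (4.46% of all genes in either direction). At an unadjusted p under 0.05 the counts were 32 lower and 0 higher, against 9.54 and 12.4% of all tested genes. By DESeq2 31 were called lower and 0 higher, against 5.98% of all genes called lower by that tool. The log2 change was below 0 in 37 of the 38, against 49.8% of all tested genes, and its median was -0.65, against 0.00. In CPM (counts scaled to the size of the library), the 3 S100a16+/- libraries all lay below the 3 WT libraries for 34 of the 38, against 14.4% of all tested genes, and for 0 genes all above, against 15.8%.

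**Figure D1:**
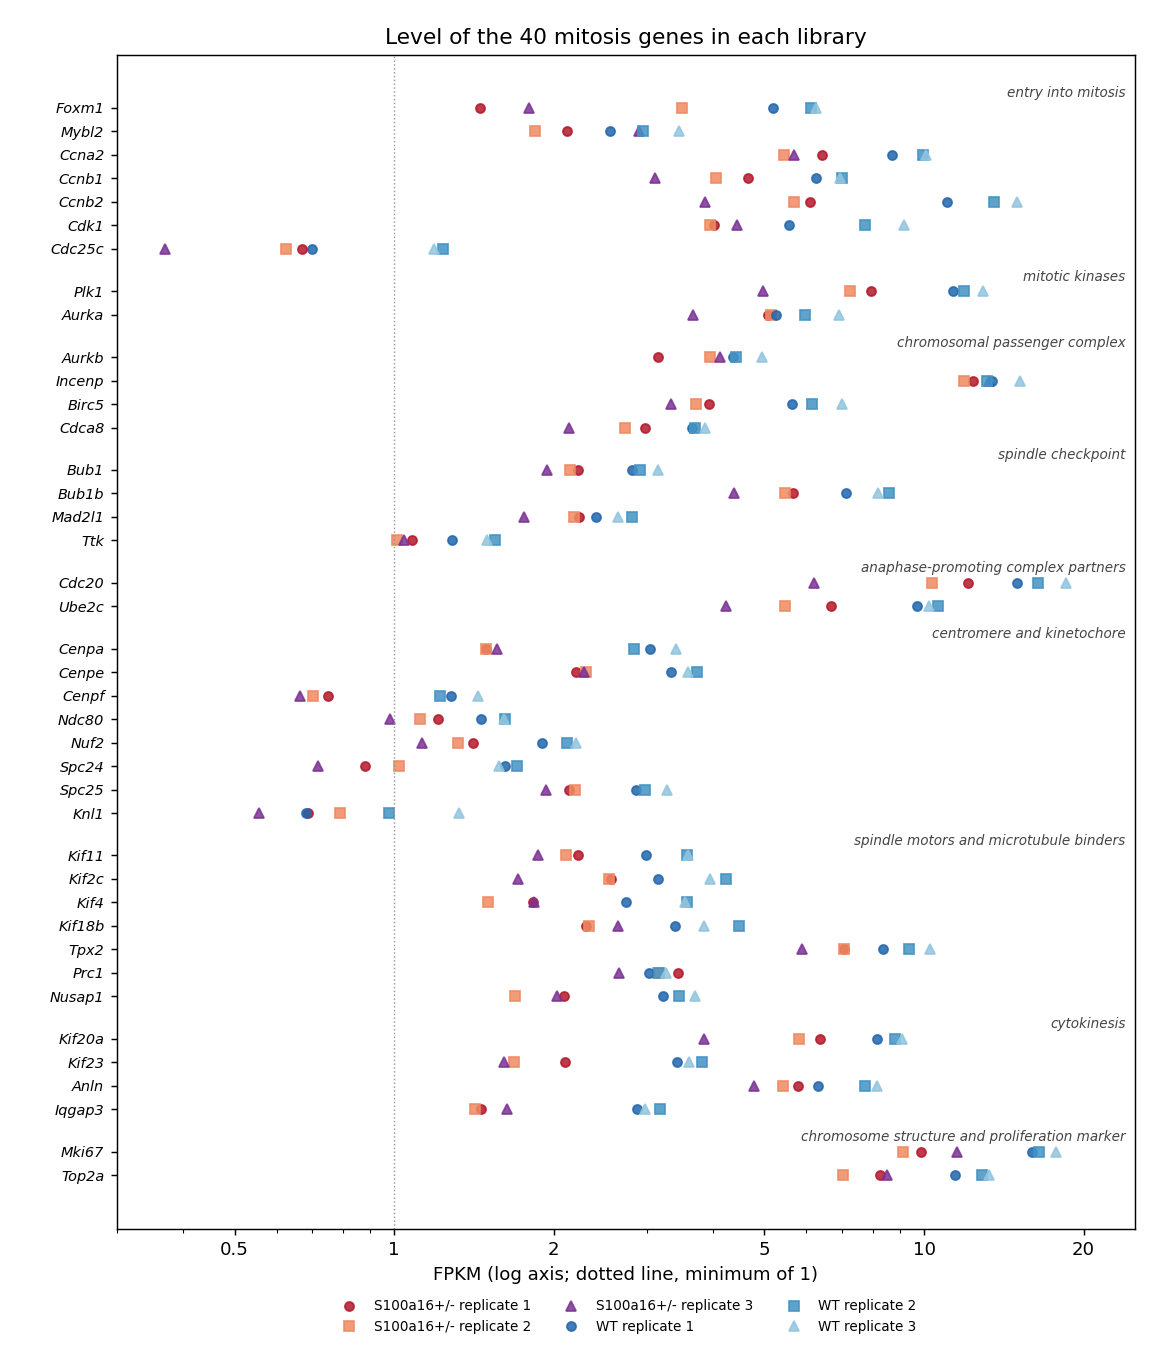
FPKM of each of the 40 mitosis genes (rows, grouped by role) in each of the 6 libraries, on a log axis. In 36 of the 40 rows all S100a16+/- points lie to the left of all WT points, a count in FPKM that was not made over all genes. In CPM the S100a16+/- libraries all lay below WT for 34 of the 38 tested genes, against 14.4% of all tested genes.

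Together the 40 genes made up 0.0877, 0.0830 and 0.0797% of the counts in S100a16+/- replicates 1, 2 and 3 and 0.121, 0.134 and 0.142% in WT. Their summed levels were 157, 148 and 134 FPKM, against 213, 239 and 253 FPKM. The level of a typical mitosis gene was 67.5, 62.2 and 56.6% of its WT mean in the 3 S100a16+/- replicates (medians over the 40 genes). In each of the 3 libraries, 38 of the 40 genes lay below the lowest WT library in FPKM, a count not made over all genes. The share over all genes was taken only in CPM and for the 3 libraries together: 14.4%, against 34 of the 38 tested. Mean levels in WT were low to moderate, from 0.996 FPKM for Knl1 to 16.7 FPKM for Mki67, and counts for single genes ran from 128 to 14404. Within WT, replicate 1 was the lowest for 36 of the 40 genes.

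Leaving out S100a16+/- replicate 3 raised the count of mitosis genes called lower to 30 of 38, the 13 included, while 16.4% of all tested genes were then called lower. By edgeR 0 of the 38 were called higher in that fit, against 15.8% of all genes, and 0 were higher at an unadjusted p under 0.05, against 21.2%. The 8 tested genes called in neither fit were Foxm1, Aurka, Aurkb, Incenp, Mad2l1, Ttk, Prc1 and Anln. Over all 38 tested mitosis genes, the median log2 change was -0.57 without this library. The fits without any one of the other 5 libraries called far fewer genes in all. Without S100a16+/- replicate 1 the count of mitosis genes called lower was 2 (0.18% of all genes) and without replicate 2 it was 1 (0.117%). Without WT replicate 1, 2 or 3 edgeR called 0 of the 38 (0.0862, 0.0783 and 0.0783% of all genes), with 32, 29 and 26 of the 38 lower at an unadjusted p under 0.05, against 6.32, 6.65 and 6.2% of all genes. In every one of the 6 fits the log2 change was below 0 for the same 37 genes or for all 38. Other settings gave 21 called lower on log2(TPM + 1) with limma (2.15% of all genes), 6 with no expression minimum (0.286%), 5 of the 17 genes that reached 5 FPKM (2.02%) and 33 with voom sample weights (17.8%).

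**Figure D2:**
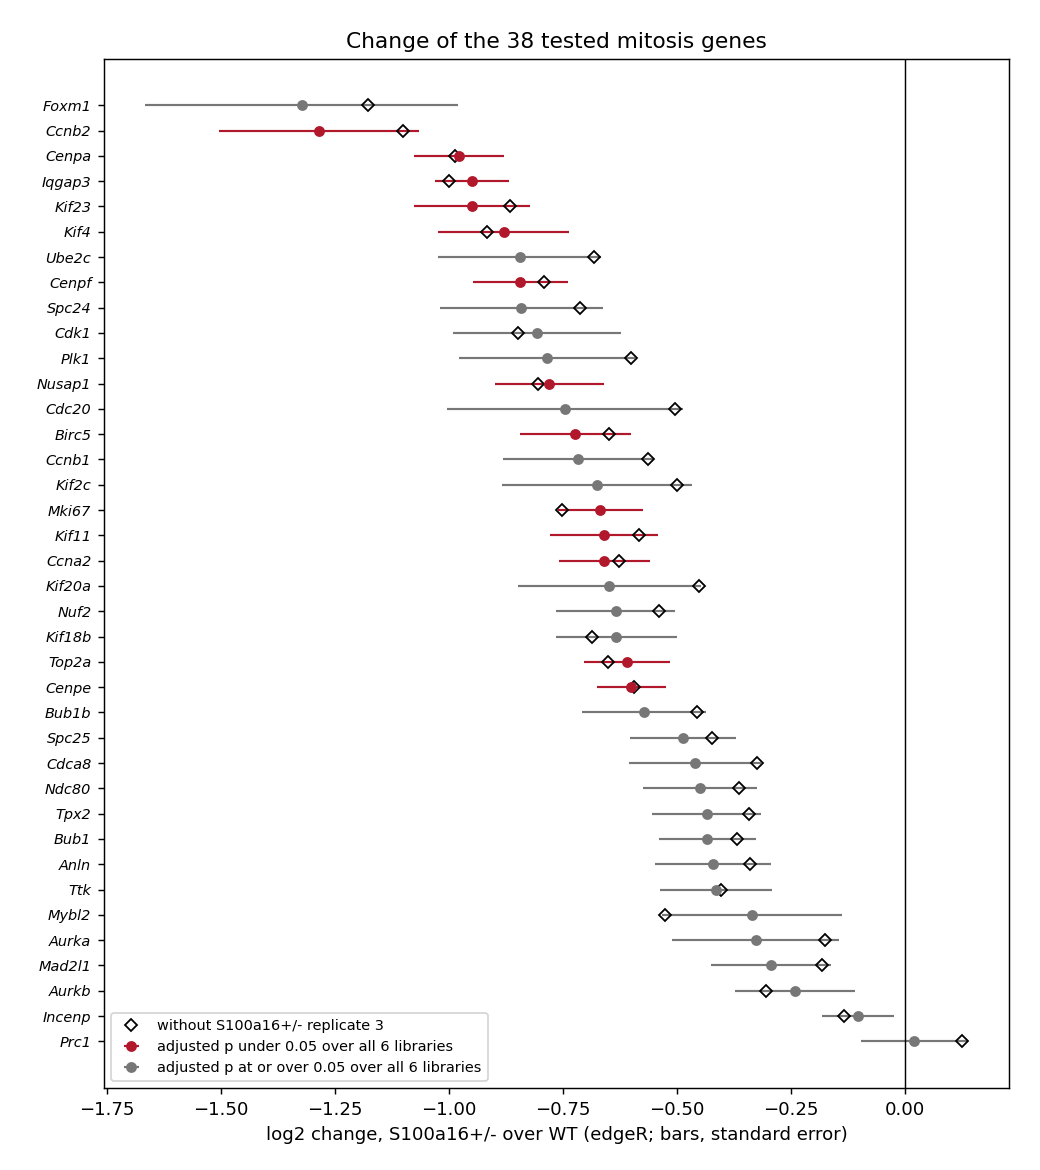
Log2 change of the 38 tested mitosis genes, S100a16+/- over WT, with bars of 1 SE from the edgeR fit. Red marks the 13 genes that passed the test, and open diamonds give the value without S100a16+/- replicate 3. Prc1 alone has a point above 0.

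Among genes that bring a cell into mitosis, 2 of 6 tested were called lower, the cyclins Ccnb2 and Ccna2. Ccnb2 encodes cyclin B2, a partner of Cdk1, and lies on chromosome 9 (ENSMUSG00000032218, 70407692 to 70421547, minus strand, coordinates as deposited). It measured 6.10, 5.67 and 3.86 FPKM in S100a16+/- replicates 1, 2 and 3 and 11.05, 13.5 and 15.0 FPKM in WT. Every S100a16+/- library was below every WT library, and the means were 5.21 ± 1.19 and 13.2 ± 1.99 FPKM (SD, n = 3 each). The mean FPKM was 39.5% of that in WT. On scaled counts the log2 change was -1.28 ± 0.22 (SE, edgeR adjusted p = 0.0383), the largest fall among the 13. Ccna2, cyclin A2, which acts in S phase and early mitosis, stood at 6.42, 5.45 and 5.68 FPKM against 8.70, 9.95 and 10.1 FPKM in WT. Its groups did not overlap either, and the log2 change was -0.66 ± 0.10 (SE, edgeR adjusted p = 0.0293).

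Ccnb1 and Cdk1, the core of the mitotic kinase, had log2 changes of -0.72 and -0.81 that missed the threshold (edgeR adjusted p = 0.0753 and 0.0733). Both passed once S100a16+/- replicate 3 was left out, at -0.56 and -0.85 with adjusted p of 0.00744 and 0.0303. Foxm1, a transcription factor that switches on G2 and mitosis genes, was named after its values were seen, because it had the lowest log2 change of the 38 without passing the test. Its levels were 1.45, 3.49 and 1.80 FPKM in S100a16+/- and 5.19, 6.12 and 6.25 FPKM in WT. All 3 S100a16+/- libraries were below WT, but at 24.8, 59.6 and 30.7% of its mean, and the log2 change of -1.32 had an SE of 0.34 (edgeR adjusted p = 0.0948). Without S100a16+/- replicate 3 it was -1.18 with an adjusted p of 0.0623, and of the 6 fits with 1 library left out, that without S100a16+/- replicate 2, in which Foxm1 was nearest to WT, was the 1 that called it (adjusted p = 0.0338). Mybl2, which encodes B-MYB, overlapped between the groups (1.85 to 2.90 FPKM against 2.56 to 3.45 FPKM), with a log2 change of -0.34 (edgeR adjusted p = 0.387). Without S100a16+/- replicate 3, where it was highest, this was -0.53 with an adjusted p of 0.0477. Cdc25c, a phosphatase that activates Cdk1, was too low to test, with 0.369 to 0.671 FPKM in S100a16+/- and 0.700 to 1.24 FPKM in WT.

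Neither of the mitotic kinases Plk1 and Aurka was called by edgeR, although 1 of the 2 was lower at an unadjusted p under 0.05 and 1 was called by DESeq2. Plk1, which acts from mitotic entry to cytokinesis, measured 7.95, 7.26 and 4.98 FPKM in S100a16+/- and 11.4, 11.9 and 12.9 FPKM in WT. Its groups were apart, with S100a16+/- replicate 3 the lowest, and the log2 change was -0.79 ± 0.19 (SE, edgeR adjusted p = 0.0841). Without that replicate it was -0.60 with an adjusted p of 0.00459. Aurka, which matures the spindle poles, had an estimated log2 change of -0.33 (edgeR adjusted p = 0.364). Leaving the same replicate out brought it to -0.18 (adjusted p = 0.355).

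In the chromosomal passenger complex, which corrects wrong attachments and directs cytokinesis, 1 of 4 genes was called. Birc5, encoding survivin, stood at 3.93, 3.71 and 3.33 FPKM in S100a16+/- and at 5.64, 6.14 and 7.00 FPKM in WT. These groups did not overlap, and the log2 change was -0.72 ± 0.12 (SE, edgeR adjusted p = 0.0377). Incenp, the scaffold of the complex and its most abundant member here, held 12.4, 11.9 and 13.3 FPKM against 13.4, 13.1 and 15.2 FPKM. Its groups overlapped and its log2 change was -0.10 ± 0.08 (SE, edgeR adjusted p = 0.516). The kinase Aurkb (-0.24) and the targeting subunit Cdca8 (-0.46) lay between them, with adjusted p of 0.353 and 0.143. Cdca8 passed without S100a16+/- replicate 3, at -0.32 (adjusted p = 0.0242). The 4 genes of 1 complex thus spanned log2 changes from -0.72 to -0.10, and no test compared them with each other.

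The spindle checkpoint genes Bub1, Bub1b, Mad2l1 and Ttk had 0 of 4 called by edgeR, with 3 lower at an unadjusted p under 0.05 and 3 called by DESeq2. Bub1b, which encodes the checkpoint protein BUBR1, measured 5.66, 5.47 and 4.38 FPKM in S100a16+/- and 7.13, 8.58 and 8.20 FPKM in WT. The groups were apart, and the log2 change was -0.57 ± 0.14 (SE, edgeR adjusted p = 0.0805). For Bub1, Mad2l1 and Ttk the log2 changes were -0.43, -0.29 and -0.41, with adjusted p from 0.0841 to 0.263. Bub1 and Bub1b passed without S100a16+/- replicate 3 (adjusted p of 0.0291 and 0.0165), where Mad2l1 stood at -0.18 (adjusted p = 0.172).

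Cdc20 and Ube2c work with the anaphase-promoting complex, the ubiquitin ligase that ends the checkpoint by marking securin and cyclin B for destruction. By edgeR 0 of the 2 were called, with 2 lower at an unadjusted p under 0.05 and 1 called by DESeq2. Cdc20, the activator of the complex, stood at 12.1, 10.3 and 6.19 FPKM in S100a16+/- and 15.0, 16.4 and 18.6 FPKM in WT, on chromosome 4 (118432901 to 118437352, minus strand). All 3 S100a16+/- libraries were below WT, but replicate 3 was at 37.2% of the WT mean and replicate 1 at 72.7%, and the log2 change was -0.74 ± 0.26 (SE, edgeR adjusted p = 0.172). Ube2c, the ubiquitin-conjugating enzyme of the complex, had an estimated log2 change of -0.84 (edgeR adjusted p = 0.0624). Without S100a16+/- replicate 3 both passed, at adjusted p of 0.0252 and 0.00586.

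Centromere and kinetochore genes gave 3 called of 7 tested, and all 7 without S100a16+/- replicate 3. Cenpa encodes the histone H3 variant that marks the centromere and lies on chromosome 5 (ENSMUSG00000029177, 30666777 to 30674830, plus strand). Its levels were 1.49, 1.49 and 1.56 FPKM in S100a16+/- and 3.04, 2.84 and 3.40 FPKM in WT. The groups did not overlap, with means of 1.51 ± 0.0414 and 3.09 ± 0.286 FPKM (SD, n = 3 each), a log2 change of -0.98 with an SE of 0.10 (edgeR adjusted p = 0.0120). Cenpe, a motor that carries chromosomes to the spindle centre, held 2.20, 2.30 and 2.28 FPKM against 3.33, 3.73 and 3.59 FPKM. Here too every S100a16+/- library was below WT, with a log2 change of -0.60 with an SE of 0.08 (edgeR adjusted p = 0.0198). Cenpf, a large protein of the outer kinetochore, held 0.749, 0.703 and 0.664 FPKM against 1.28, 1.22 and 1.44 FPKM. Its log2 change was -0.84 ± 0.10 (SE, edgeR adjusted p = 0.0198), but it reached the expression minimum through the WT libraries alone. With all S100a16+/- levels below that minimum, only higher WT levels could bring it into the test.

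The 4 subunits of the NDC80 complex, the part of the kinetochore that grips microtubules, were all below WT without passing the test. Log2 changes were -0.45 for Ndc80, -0.63 for Nuf2, -0.84 for Spc24 and -0.49 for Spc25, with edgeR adjusted p from 0.0579 to 0.110. Knl1, the scaffold that recruits the checkpoint kinase Bub1, was not tested. Its groups overlapped, at 0.555 to 0.792 FPKM in S100a16+/- and 0.683 to 1.32 FPKM in WT.

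Spindle motors and microtubule binders also had 3 called of 7, namely Nusap1, Kif4 and Kif11. Nusap1, a microtubule bundler, stood at 2.10, 1.69 and 2.03 FPKM in S100a16+/- and 3.22, 3.45 and 3.69 FPKM in WT, a log2 change of -0.78 with an SE of 0.12 (edgeR adjusted p = 0.0306). Kif4, a chromosome-bound kinesin, stood at 1.83, 1.501 and 1.84 FPKM against 2.74, 3.57 and 3.53 FPKM, a log2 change of -0.88 with an SE of 0.14 (edgeR adjusted p = 0.0362). Kif11, the kinesin that pushes the spindle poles apart, held 2.22, 2.11 and 1.87 FPKM against 2.99, 3.57 and 3.59 FPKM, a log2 change of -0.66 with an SE of 0.12 (edgeR adjusted p = 0.0420). In none of these 3 genes did the groups overlap. Tpx2, the activator of Aurora A and the most abundant gene of this role, held 7.05, 7.05 and 5.88 FPKM against 8.38, 9.38 and 10.3 FPKM. Its groups were apart, and its log2 change of -0.43 missed the threshold (SE 0.12, edgeR adjusted p = 0.107). The kinesins Kif2c, which takes microtubules apart, and Kif18b stood at -0.68 and -0.63 in log2 (adjusted p of 0.137 and 0.0614 by edgeR). Tpx2, Kif2c and Kif18b passed without S100a16+/- replicate 3, at adjusted p of 0.0402, 0.0451 and 0.0156.

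Prc1, which bundles the microtubules of the central spindle, was the exception in its role and in the whole set, and was named for that after its values were seen. It stood at 3.43, 3.15 and 2.66 FPKM in S100a16+/- and 3.02, 3.17 and 3.26 FPKM in WT. The groups overlapped and the log2 change was 0.02 ± 0.12 (SE, edgeR adjusted p = 0.937). Its sign was not fixed: the value was -0.04 when counts were scaled by library totals alone. Kif4, with which PRC1 works on the central spindle, is among the genes that were lower.

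Cytokinesis genes had 2 called of 4, Iqgap3 and Kif23. Iqgap3, a scaffold of the cell cortex, lies on chromosome 3 (ENSMUSG00000028068, 88081971 to 88121048, plus strand) and had the smallest adjusted p of the 38. It measured 1.46, 1.42 and 1.63 FPKM in S100a16+/- and 2.88, 3.17 and 2.98 FPKM in WT. The groups were far apart for their spread, with means of 1.503 ± 0.113 and 3.01 ± 0.149 FPKM (SD, n = 3 each) and a log2 change of -0.95 with an SE of 0.08 (edgeR adjusted p = 0.00845). Kif23, the motor subunit of centralspindlin, stood at 2.10, 1.68 and 1.61 FPKM against 3.42, 3.82 and 3.60 FPKM. Its mean was 49.8% of WT, with a log2 change of -0.95 with an SE of 0.13 (edgeR adjusted p = 0.0230). Iqgap3 and Kif23 were also called without S100a16+/- replicate 1 (adjusted p of 0.0470 and 0.0382). Kif20a, the kinesin that brings the passenger complex to the midzone, held 6.36, 5.80 and 3.84 FPKM against 8.14, 8.83 and 9.09 FPKM. Its groups were apart, with replicate 3 the lowest, and the log2 change was -0.65 ± 0.20 (SE, edgeR adjusted p = 0.139). Without that replicate it was -0.45 with an adjusted p of 0.00834. Anln, encoding the contractile ring protein anillin, had an estimated log2 change of -0.42 (edgeR adjusted p = 0.132).

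The proliferation marker Mki67 and Top2a, the topoisomerase that untangles sister chromatids, were both called. Mki67 stood at 9.88, 9.13 and 11.5 FPKM in S100a16+/- and at 15.96, 16.5 and 17.7 FPKM in WT. Its means were 10.2 ± 1.22 and 16.7 ± 0.915 FPKM (SD, n = 3 each), and the log2 change was -0.67 ± 0.09 (SE, edgeR adjusted p = 0.0251). Top2a stood at 8.25, 7.03 and 8.50 FPKM against 11.4, 12.8 and 13.3 FPKM. The log2 change was -0.61 ± 0.09 (SE, edgeR adjusted p = 0.0306), and neither gene overlapped between the groups.

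The 3 S100a16+/- libraries did not order the genes alike. Replicate 3 was the lowest of the 3 for 25 of the 40 genes, replicate 2 for 11 and replicate 1 for 4. Against the mean of replicates 1 and 2, replicate 3 was lowest for the genes that follow: Cdc20 stood at 55.2%, Cdc25c at 56.9%, Kif20a at 63.1%, Plk1 at 65.4%, Ccnb2 at 65.5%, Kif2c at 67.0%, Ube2c at 69.7%, Ccnb1 at 71.5% and Aurka at 71.7%. It was higher than the other 2 for Mybl2 (146%), Mki67 (121%) and Aurkb (116%), among others. These genes were picked by their values in 1 library, so no test was made. By role, the median log2 ratio to WT in replicates 1, 2 and 3 was -0.47, -0.71 and -1.31 for Cdc20 and Ube2c, and -0.62, -0.78 and -0.52 for Mki67 and Top2a.

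**Figure D3:**
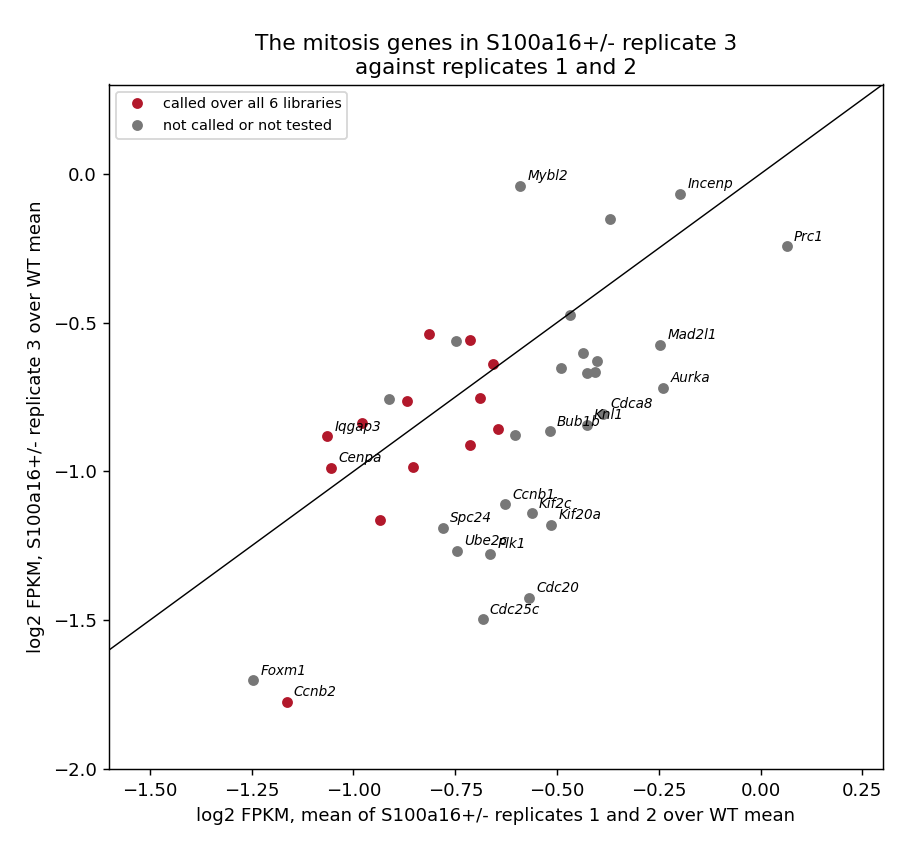
Each point is 1 of the 40 mitosis genes. The horizontal axis is the log2 ratio of the mean of S100a16+/- replicates 1 and 2 to the WT mean and the vertical axis the same for replicate 3, and the diagonal marks equal values. Cdc20 (-0.57 and -1.42) lies far below the diagonal.

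Other genes of the cell cycle were taken from lists written with earlier results known, and they are given by role. Among 62 tested further mitotic genes, 7 were called lower and 0 higher by edgeR (38 and 0 at an unadjusted p under 0.05, 28 and 0 by DESeq2), with a median log2 change of -0.47 and 60 of 62 below 0. The 3 with the smallest p were Cep55, which works in abscission (log2 change -0.61, adjusted p = 0.0383), the mitotic kinase Pbk (-0.72, 0.0407) and the spindle protein Fam83d (-0.57, 0.0431). Condensin and cohesin genes had 2 of 17 called lower, the condensin subunits Ncapd2 (-0.58, 0.0275) and Ncaph (-0.57, 0.0284), and a list median of -0.14. DNA replication genes had 3 of 40 called lower, the helicase subunit Mcm7 (-0.62, 0.0216), thymidine kinase Tk1 (-0.47, 0.0356) and the origin recognition subunit Orc6 (-0.48, 0.0383), and a list median of -0.21. In S100a16+/- replicates 1, 2 and 3 the median log2 ratio to WT was -0.22, -0.29 and -0.11 for replication genes. For the 38 tested mitosis genes it was -0.50, -0.61 and -0.75.

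**Figure D4:**
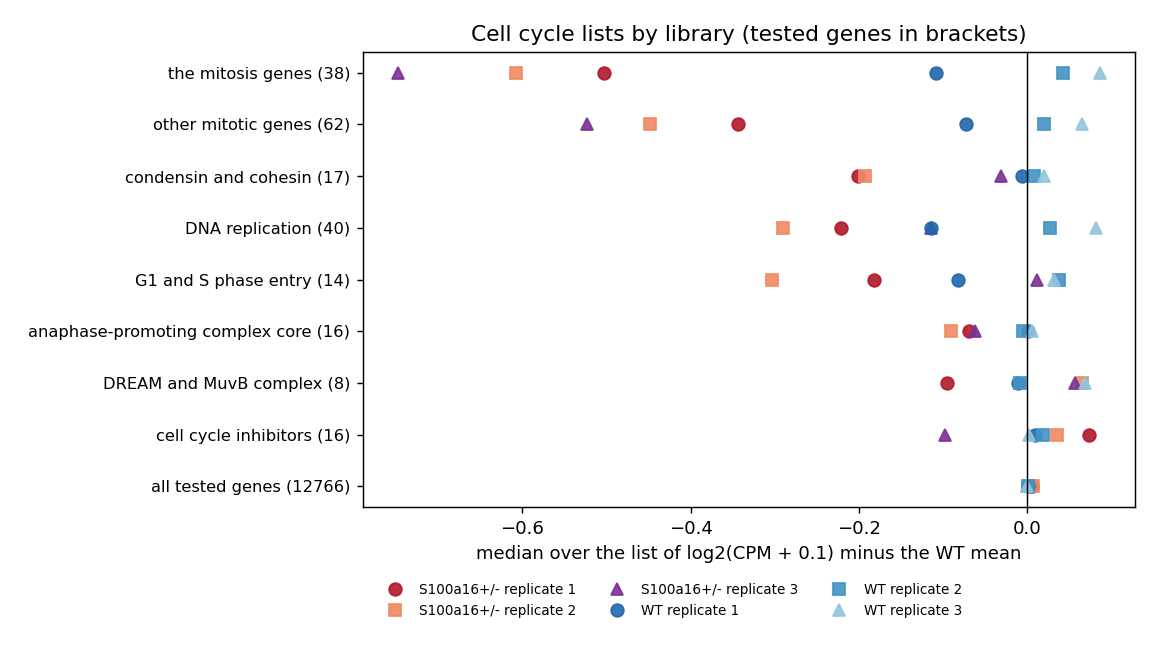
Median log2 ratio to the WT mean over the tested genes of each cell cycle list, with 1 point for each of the 6 libraries. The 38 tested mitosis genes have the lowest S100a16+/- medians (-0.50, -0.61 and -0.75) of the lists plotted, and the WT points lie between -0.11 and 0.09 for them.

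The remaining lists had 0 called by edgeR in either direction. Of 14 genes of G1 and S phase entry, 3 were lower and 1 higher at an unadjusted p under 0.05, and DESeq2 called 3 lower; Ccnd1, cyclin D1, measured 65.1 ± 8.33 against 78.5 ± 4.03 FPKM (SD, n = 3 each) and its partner Cdk4 had an estimated log2 change of -0.28 (edgeR adjusted p = 0.0890). The 16 core genes of the anaphase-promoting complex had 1 lower at an unadjusted p under 0.05 and 0 called by DESeq2, and its subunit Anapc2 stood at 34.0 ± 0.140 against 35.8 ± 0.452 FPKM (SD, n = 3 each). Of 16 cell cycle inhibitors, 1 was lower and 2 were higher at an unadjusted p under 0.05, and DESeq2 called 2 higher. Cdkn1a, the p21 inhibitor, measured 112 ± 4.24 FPKM in S100a16+/- and 102 ± 0.959 FPKM in WT (SD, n = 3 each), a log2 change of 0.18 (edgeR adjusted p = 0.191). Of 8 DREAM and MuvB genes, 2 were lower at an unadjusted p under 0.05 and DESeq2 called 1; E2f4, the DNA-binding subunit of DREAM, had an estimated log2 change of 0.13 (edgeR adjusted p = 0.272). Without S100a16+/- replicate 3, counts of calls lower and higher were 27 and 0 for further mitotic genes, 7 and 1 for condensin and cohesin, 14 and 0 for replication, 6 and 1 for G1 and S phase entry, 1 and 0 for the anaphase-promoting complex core, 2 and 4 for inhibitors, and 1 and 1 for DREAM and MuvB. Of all tested genes 16.4% were lower and 15.8% higher in that fit. The counts for the anaphase-promoting complex core, the inhibitors and DREAM and MuvB (1 of 16, 2 of 16 and 1 of 8 lower) were below that share of lower genes. For higher genes, the inhibitors had 4 of 16, above the 15.8% share. The core had 0 of 16 and DREAM and MuvB 1 of 8, below it. Whether the mitosis genes changed more than these lists was not tested.

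Markers of cell types in the cultures also differed between the libraries. Of 16 macrophage markers, 4 were called higher and 0 lower by edgeR (Cd5l, Cd14, Marco and Adgre1), and the sum over the list was above every WT library in each S100a16+/- library. Lyz2 alone gave 9230, 10057 and 5460 FPKM of that sum in S100a16+/-, against 4377 to 4595 FPKM in WT. Other macrophage markers, C1qa, C1qb, C1qc, Timd4 and Ptprc, had estimated log2 changes below 0 (-0.47 to -0.06) that did not pass the test. Without replicate 3, 8 of the 16 were called higher and 4 lower (C1qa, C1qb, C1qc and Timd4). Endothelial markers summed to 984, 940 and 2075 FPKM in S100a16+/- replicates 1, 2 and 3 and to 1786 to 1922 FPKM in WT. By edgeR 0 of 11 endothelial markers were called, with 2 lower at an unadjusted p under 0.05 and 1 called by DESeq2, and 9 were called lower without replicate 3. Stellate and myofibroblast markers had 0 of 10 called, with 1 lower at an unadjusted p under 0.05 and 1 by DESeq2. Without replicate 3, 3 were called higher, with Des, the muscle-type filament desmin, at a log2 change of 1.63, and 1 lower, the collagen Col3a1 at -1.07. The contractile gene Acta2 stood at 489, 470 and 48.0 FPKM against 388 to 437 FPKM. Hepatocyte markers summed to 149, 147 and 599 FPKM against 225 to 261 FPKM, and without replicate 3 edgeR called 7 of 7 tested lower, with a median log2 change of -3.12. Cholangiocyte markers summed to 232, 220 and 81.1 FPKM against 35.0 to 41.0 FPKM, of which Spp1, a gene that macrophages also express, gave 226, 215 and 77.2 FPKM against 30.2 to 35.8 FPKM. Krt19 and Sox9, the other cholangiocyte markers tested, stood at 0.04 and -0.69 in log2 (adjusted p of 0.884 and 0.417 by edgeR). Neutrophil markers summed to 34.1, 37.9 and 30.7 FPKM against 18.2 to 21.2 FPKM. By edgeR 1 of the 3 tested neutrophil markers was called higher and 0 lower. Without replicate 3, 2 were called higher and 0 lower. Lymphocyte markers summed to 1.41, 1.72 and 6.90 FPKM against 7.21 to 7.63 FPKM, and of the defining genes of neutrophils Ly6g, Retnlg and S100a9 had 0 counts in every library. The part of these cell types in the lower mitosis genes was not tested. S100a16+/- replicate 3 was unlike replicates 1 and 2 in its stellate, endothelial and hepatocyte markers. In all 3 S100a16+/- libraries the macrophage, cholangiocyte and neutrophil sums were above every WT library, and the lymphocyte sum was below. The mitosis genes summed to 157, 148 and 134 FPKM in replicates 1, 2 and 3, each below the lowest WT library at 213 FPKM.

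**Figure D5:**
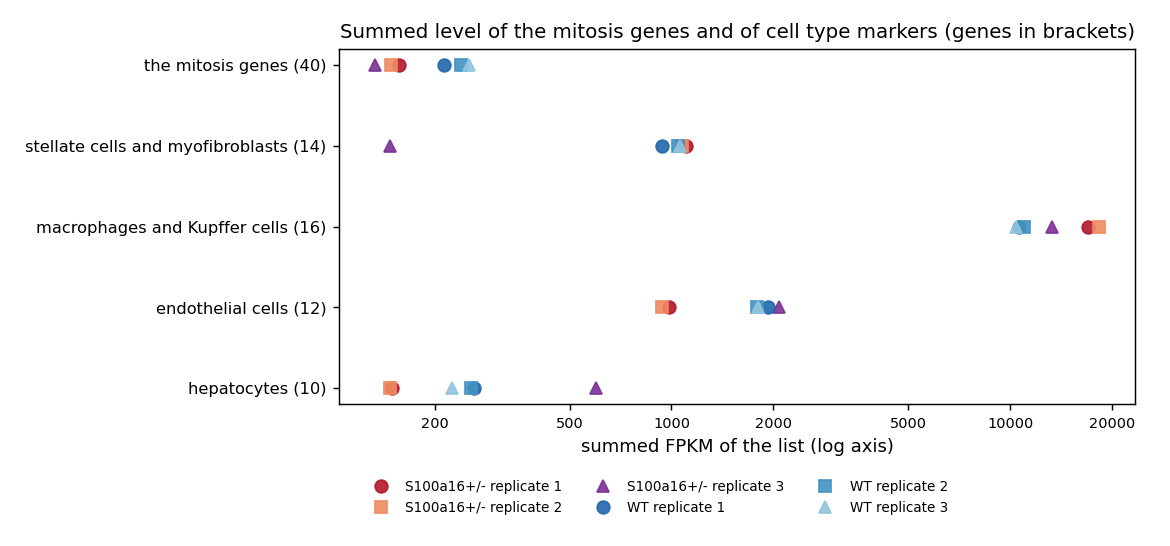
Summed FPKM, on a log axis, of the 40 mitosis genes and of 4 sets of cell type markers in each library. The mitosis genes are below WT in all 3 S100a16+/- libraries, and the macrophage sum is above WT in all 3. The stellate sum of replicate 3 is 147 FPKM against 938 FPKM or more in the other 5 libraries.

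For 8 of the 40 genes an annotated neighbour on the opposite strand shared bases with the gene and held at least 10% as many counts: Exosc9 at Ccna2, Elovl1 at Cdc20, Gm3550 at Cdc25c, 9930104L06Rik at Cdca8, Cdc23 at Kif20a, Pdzd11 at Kif4, Oip5 at Nusap1 and Rccd1 at Prc1. The neighbour's counts ran from 15.0% of the gene's at Prc1 to 404% at Cdc20. Ccna2, Kif4 and Nusap1, with 66.9, 156 and 23.3%, are among the 13 genes called lower. The use of strand in the counting remains not given in the sources used here, and the values of these 8 are uncertain to that extent. The pseudogenes Ccnb1-ps and Ccnb2-ps held 448 and 302 counts over all 6 libraries, and reads shared between them and their parent genes could have been split.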

How the data were processed

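Messenger RNA of 3 S100a16+/- and 3 WT libraries was analysed from 1 table. In it the authors deposited whole-number counts and FPKM values for every gene and library, per the file headers. The submitters' processing notes list StringTie 1.3.4d, HISAT2 2.0.4, cutadapt 1.9, edgeR, DESeq2 and UMI-tools without their roles. Genome build, strand use and the handling of molecular identifiers: not given in the sources used here. Among the 40 genes, 37 had the coordinates of GENCODE M21 (GRCm38). Library totals were 61979103 to 76291481 counts.

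Genes with at least 1 FPKM in at least 3 libraries (12766 of 55401) were fitted with edgeR 4.0.16 (R 4.3.3), by quasi-likelihood with TMM scaling and genotype as the only term. A gene was called at a Benjamini-Hochberg adjusted p under 0.05 over all genes tested, with no fold threshold, and the p-values are two-sided. Log2 changes compare S100a16+/- with WT. Their SE was taken as |log2 change| / √F. For list medians in single libraries, the WT mean of log2(CPM + 0.1) was subtracted from each library's value. The edgeR step was tested on simulated counts with known changes. No simulated library was made to stand apart as S100a16+/- replicate 3 did, so that test does not cover such a case. In each left-out fit the genes tested stayed the same. Alternatives were other scalings, filters and pseudocounts, limma 3.58.1 (with and without voom sample weights), DESeq2 1.42.0 and the replicate number as a block.

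The 40 genes, the other lists and the tests were chosen with earlier results of these data known. Values in every library are given for called genes with the smallest p, up to 3 per role, and for the gene of highest mean FPKM in each role. Exceptions are named as such. Figures were drawn with matplotlib 3.10.9.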

Additional observations from a re-analysis of the deposited data

How the results depend on the processing

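The direction of the mitosis genes held across settings, while the number called did not. All settings refit the same libraries, so their values are not independent and add no new support for the direction. Over 625 values of single mitosis genes under the alternatives, 617 were below 0, and 0 of the mitosis genes were called higher in any setting. The other 8 were values of Prc1, which is 0.02 in the edgeR fit. It was below 0 with library totals (-0.0357), with limma on log2(TPM + 1) (-0.0765), with limma on log2(FPKM + 1), + 0.1 and + 5 (-0.0278, -0.0372 and -0.0131), and without S100a16+/- replicate 1 or 2 or WT replicate 1. With 1 library left out Prc1 ran from -0.0655 to 0.127. Mitosis genes called lower numbered 13 in the edgeR fit, 21 on TPM, 6 with no FPKM filter, 5 of the 17 tested at 5 FPKM or more, 31 with DESeq2 and 33 with voom sample weights, which gave S100a16+/- replicate 3 a weight of 0.0976. Leaving out 1 library gave 0 to 30. Their median log2 change was -0.53 and -0.28 on log2(FPKM + 1) and log2(FPKM + 5), whose pseudocounts shrink changes of low genes, and -0.71 to -0.57 with 1 library left out. Over all genes, 570 were called, against 243 with no filter, 1888 with DESeq2, 4463 with voom weights and 32 to 4115 with 1 library left out. The split of calls, 364 higher and 206 lower, was 282 and 252 with library totals, 228 and 275 on TPM and 260 and 247 on log2(FPKM + 1), and the median of all genes stood at -0.10 on TPM. S100a16 had an adjusted p of 0.0516 with no filter (log2 change -1.36), and its log2 change was -1.63 to -1.23 with 1 library left out. A replicate block called 0 genes and 0 of the 38 mitosis genes, with S100a16 at -1.39 (edgeR adjusted p = 0.139). At an unadjusted p under 0.05, 29 of the 38 were lower and 0 higher in that fit, against 7.63 and 9.66% of all tested genes. The labels do not state that the replicate numbers pair the libraries. Deviations of same-numbered libraries correlated at -0.138, 0.0376 and -0.0500. With 3 libraries a group, these values cannot show whether the libraries were paired. The cause of the differing counts was not tested. Precision rests on 3 libraries a group, and what expression level limits was not tested.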
